A study of Mus musculus with 15 samples.

Results

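A set of 41 genes of the cell division cycle was followed in foetal male germ cells with and without Tex15. The set was chosen by gene name and role, from G1 cyclins and kinases through CDK inhibitors, pocket proteins and E2F factors to replication and mitotic genes, with no threshold on a measured value. It makes up 41 of the 54838 gene identifiers in the gene count files, and all 41 passed the filter on low counts and were among the 16311 genes tested. The libraries compared were RNA-seq of gonocytes, the foetal male germ cells, sorted from foetal testes at E16.5. There were 3 libraries of Tex15+/- control gonocytes and 3 of Tex15-/- gonocytes. Both groups also carried 1 Miwi2 tdTom reporter allele (Miwi2 tdTom/+), and tdTomato fluorescence was the mark used for sorting. The strain was given as mixed B6CBAF1/Crl and C57BL/6N. The Tex15 null allele was made by genome editing with an insertion in exon 5, and the line descends from 1 founder animal. The controls are heterozygous and so carry 1 copy of it. How many animals went into each library is not given in the sources used here, and the p-values therefore measure only the spread between these libraries, which may be technical. The labels name the cells gonocytes and give no cell cycle state.

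Progression from G1 into S phase is driven by D-type cyclins with CDK4 and CDK6 and by E-type cyclins with CDK2. These kinases phosphorylate the pocket proteins RB1, RBL1 and RBL2, which otherwise hold E2F target genes silent, and CDK inhibitors of the INK4 family and p27 oppose them. Male germ cells stop dividing in the foetal testis, remain in G0/G1 through late gestation and resume division after birth. Replication and mitotic genes are used as markers of dividing cells, but transcript level alone does not give the cell cycle state of a cell.

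The gene counts summed to between 4893265 and 5697020 per library. Tex15 had 8183, 8315 and 9082 counts in the controls and 2338, 1267 and 1310 in Tex15-/- replicates 1, 2 and 3, lower in each Tex15-/- library than in each control. Its log2 fold change of -2.35 (SE 0.229, adjusted p = 0.0112 by edgeR) missed the threshold of 0.01 used here. Over the alternatives the adjusted p of Tex15 ran from 2.77e-95 with no filter on low counts to 0.256 without control replicate 3, and 7 of the 13 alternatives called it. Germ cell markers were present throughout: the 11 listed genes summed to between 4149 and 4453 CPM (TMM-scaled counts per 1000000), although Nanos2 was low, at 0.363 to 2.09 CPM. In Tex15-/- replicates 2 and 3, however, 35 markers of somatic testis and blood cells summed to 2953 and 911 CPM, against 227 to 289 CPM in the controls and 226 CPM in Tex15-/- replicate 1. Of the 35 markers, 34 lay above every control in replicate 2, 31 in replicate 3 and 3 in replicate 1, against 35.3%, 30.3% and 23.1% of all genes tested. The marker lists were chosen with earlier results of these data known. Interstitial markers such as collagens held the largest part, at 1893 and 439 CPM against 62.9 to 77.4 CPM in controls, followed by Leydig markers at 565 and 177 CPM against 20.3 to 62.4 CPM. Sertoli, endothelial and blood markers were also highest in replicate 2 or 3, although the endothelial sum of replicate 3, at 81.8 CPM, lay within the controls at 78.6 to 86.8. Insl3 of Leydig cells and Hba-a1 of red blood cells were at 0 in every control. The share of reads aligned outside annotated gene features was also lower in replicates 2 and 3, at 11.1% and 16.04%, than in the other 4 libraries, at 20.4% to 24.4%. These are percents of all reads, unaligned ones included. Unaligned reads made up 42.4% and 38.8% in replicates 2 and 3 and 32.8% to 37.1% in the other 4 libraries. Results are therefore given with all 6 libraries and again with Tex15-/- replicate 1 alone against the controls, where its spread is assumed to be that of the controls. Replicate 1 also kept more Tex15 RNA, at 0.290 of the control mean against 0.143 and 0.155 in replicates 2 and 3. Residual Tex15 RNA and somatic RNA thus differ along the same split of libraries and cannot be told apart here.

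**Figure D1:**
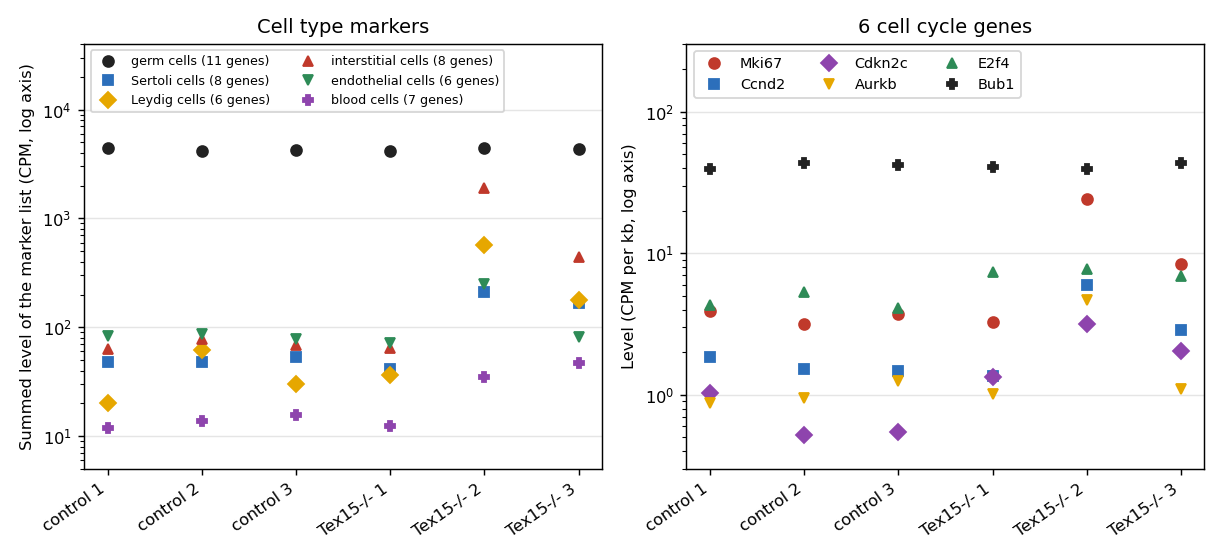
Left, summed CPM of 6 marker lists in each of the 6 gonocyte libraries on a log axis, and right, CPM per kb of exon of 6 cell cycle genes in the same libraries on a log axis. Sertoli, Leydig, interstitial and endothelial sums are highest in Tex15-/- replicate 2, where Mki67 reaches 24.0 CPM per kb. The blood sum is highest in replicate 3, at 46.8 CPM against 34.9 in replicate 2. Bub1 stays between 39.1 and 43.7 CPM per kb and the germ cell sum between 4149 and 4453 CPM.

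Levels of different genes were compared per length, as CPM per kilobase of annotated exon (CPM per kb). The length was the union of all exons of a gene, and orders and overlaps between genes hold for this length. In controls, 23 of the 41 genes had a mean level above the median of the 14038 protein-coding genes tested, which was 3.75 CPM per kb. The top 10% of coding genes held 9 of them: the kinase gene Cdk4, the inhibitor gene Cdkn2a, the helicase genes Mcm3, Mcm6 and Mcm7, and the mitotic genes Top2a, Bub1, Bub1b and Cdc20. At the other end, Ccnd1, Cdkn2c, E2f2 and E2f3 had control means under 1 CPM per kb. In a bulk library, fewer cells with a transcript and less of it per cell cannot be told apart.

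**Figure D2:**
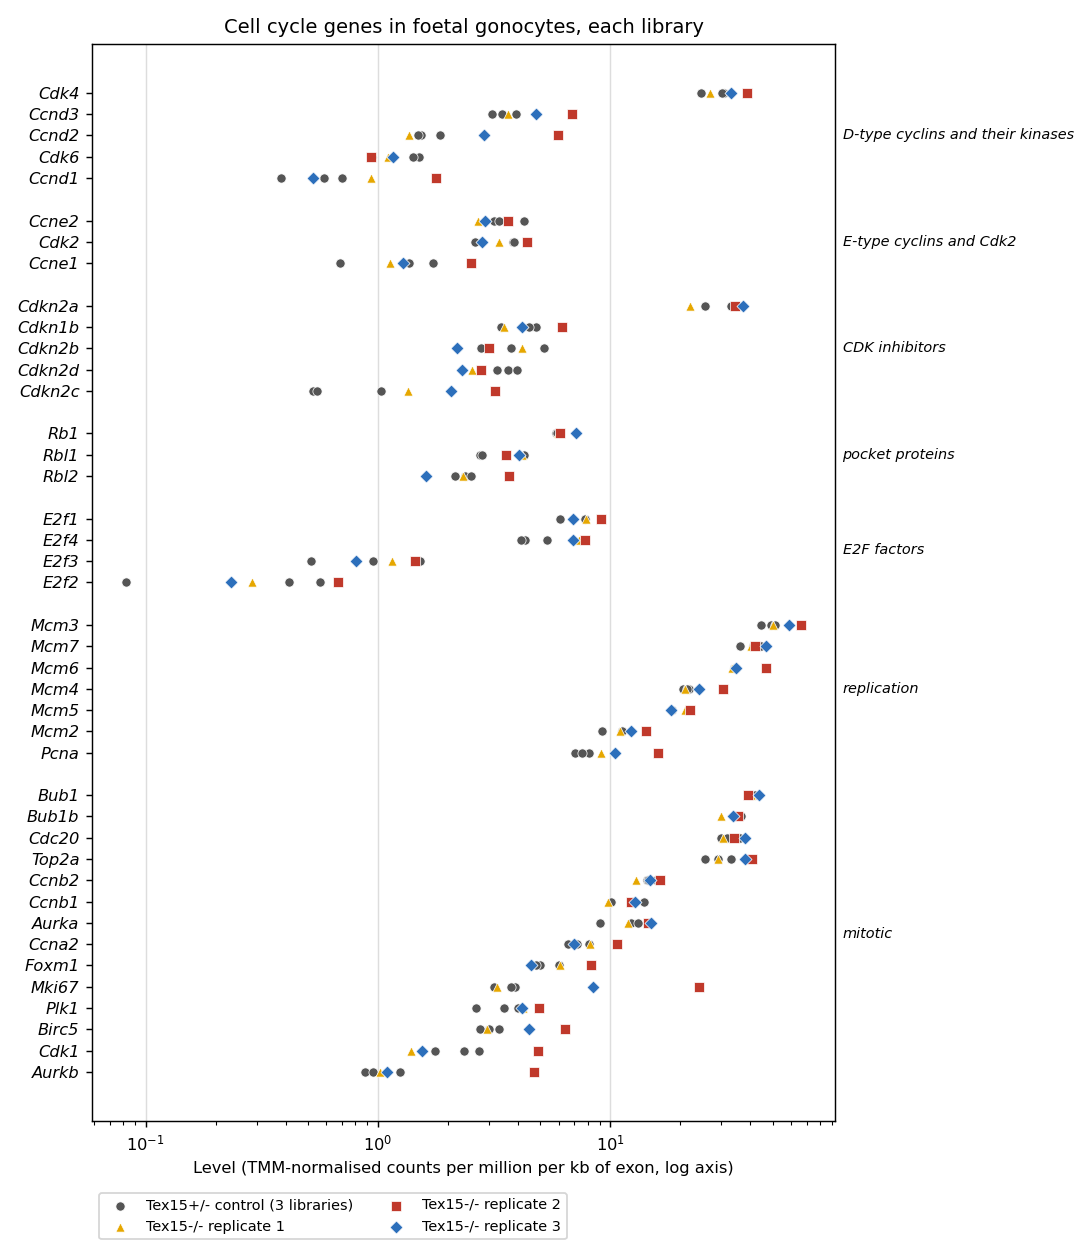
Level of each of the 41 genes in CPM per kb on a log axis, grouped by role and ordered within a role by control mean, with 1 symbol per library. Cdk4, Cdkn2a, most Mcm genes and Bub1 lie far to the right in every library, and Mki67 and Aurkb in Tex15-/- replicate 2 lie far from their controls.

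No cell cycle gene passed the test between genotypes, in a fit in which Tex15 itself did not pass at 0.01. At an adjusted p under 0.01 edgeR called 0 of the 41, and the same fit called 0% of all genes tested. At an adjusted p under 0.05 it again called 0 of the 41, with 0.0184% of all genes called. Without adjustment, 7 of the 41 had a p under 0.05 (Cdkn2c, Mki67, E2f4, Pcna, Ccnd2, Ccnd3 and Mcm3), against 9.2% of all genes, and all 7 were higher in Tex15-/-, a direction in which 6.05% of all genes had such a p. Of the 7, Cdkn2c passed the filter on low counts only through the Tex15-/- libraries, where it was high, so its p is no support. DESeq2 also called 0 of the 41 at an adjusted p under 0.01 and under 0.05, against 0.0788% and 0.242% of the 17757 genes with an adjusted p. It gave 7 of the 41 an unadjusted p under 0.05, against 4.02% of the 42446 genes with any count. That base holds genes which the count filter of edgeR left out, so 4.02% is not comparable with the 9.2% above. The log2 fold change was above 0 in 32 of the 41 genes, against 50% of all genes, and its median was 0.20, against -0.00031 over all genes tested. Cdkn2c, Ccnd1, Ccne1 and E2f2 are among the 32. Their control counts alone did not meet the filter on low counts, so these genes are no support for a direction. The standard errors of the 41 fold changes ran from 0.0952 to 0.716 with a median of 0.219 on the log2 scale. The widest belonged to E2f2, with 59 counts in all, but Mki67, with 159 to 1330 counts per library, also had an SE of 0.528.

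On the TMM scale the 41 genes leaned upward in Tex15-/- replicates 2 and 3 and in neither direction in replicate 1. In replicate 2, 29 of the 41 genes lay above every control and 3 below, against 35.3% of all genes above and 36.5% below. In replicate 3, 19 lay above and 8 below, against 30.3% and 30.6% of all genes. In replicate 1, 8 lay above and 9 below, against 23.1% and 24.1%, and the remaining 24 were within the control range. The median log2 ratio to the control mean was 0.46 and 0.08 in replicates 2 and 3 and -0.02 in replicate 1. The somatic markers given above were raised in the same 2 libraries, and their part in these values was not tested. Without replicates 2 and 3, 0 of the 41 genes passed an adjusted p under 0.05 in edgeR, with 0.151% of all genes called, and 2 of the 41, Cdkn2a and E2f4, had an unadjusted p under 0.05, against 3.74% of all genes. Scaling to TPM, which divides each gene by its length before scaling the library total, in place of TMM shifted replicates 1, 2 and 3 by -0.17, -0.37 and -0.06 on the log2 scale relative to the controls. In TPM the Tex15-/- mean was above the control mean in 20 of the 41 genes, against 26.8% of all genes, where on the TMM scale it was in 32 of the 41. The counts per library moved too. In TPM, replicate 1 had 4 of the 41 above every control and 22 below, against 10.3% and 41.6% of all genes, replicate 2 had 18 and 11, against 15.0% and 60.2%, and replicate 3 had 17 and 9, against 23.5% and 33.8%.

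**Figure D3:**
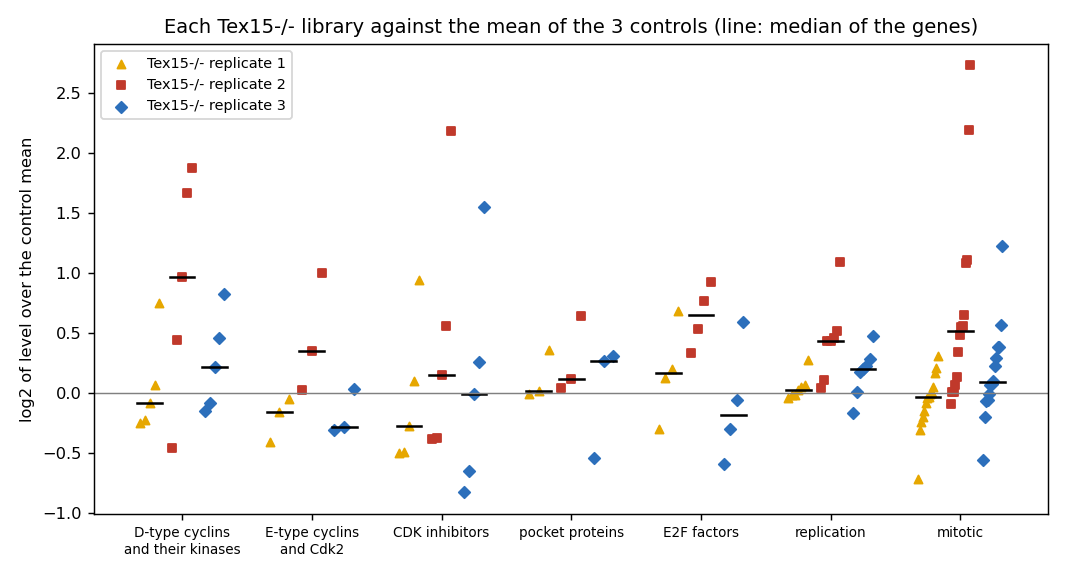
Log2 of the level in each Tex15-/- library over the mean of the 3 controls, with 1 point per gene, 3 symbols for the 3 libraries and a line at the median of each role. Replicate 2 has medians above 0 in all 7 roles, and replicate 1 has medians near or below 0 in most.

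Among the genes that open the cycle, Cdk4, the kinase partner of D-type cyclins, stood far above the cyclins themselves. It was at 30.8, 24.6 and 30.2 CPM per kb in control replicates 1, 2 and 3 and at 26.8, 38.8 and 33.1 in Tex15-/- replicates 1, 2 and 3. The control mean of 28.5 ± 3.42 CPM per kb (SD, n = 3) was 51.2-fold that of Ccnd1, the lowest of the 5 genes. The 3 D-type cyclins came in the order Ccnd3, Ccnd2 and Ccnd1, with no overlap between neighbouring cyclins in the control libraries. Ccnd3 was at 3.42, 3.08 and 3.93 CPM per kb in the controls and 3.63, 6.81 and 4.77 in the Tex15-/- libraries. Ccnd2 was at 1.84, 1.53 and 1.48 CPM per kb in the controls and 1.36, 5.95 and 2.87 in the Tex15-/- libraries, where replicates 2 and 3 lay above all controls and replicate 1 lay below them. Ccnd1 was at 0.587, 0.383 and 0.701 CPM per kb in the controls and 0.936, 1.77 and 0.525 in the Tex15-/- libraries, and its groups overlapped. Cdk6, the other kinase partner, had a control mean of 1.29 ± 0.299 CPM per kb, which overlapped Ccnd2 in the controls, and lay within or just below the control range in the Tex15-/- libraries.

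The fitted log2 fold change of Ccnd2 was 1.07 (SE 0.414, adjusted p = 0.479) by edgeR, and -0.25 without replicates 2 and 3. That of Ccnd3 was 0.54 (SE 0.218, adjusted p = 0.493), and 0.06 without them. Over the alternatives the adjusted p ran from 0.000149 to 0.9995 for Ccnd2 and from 0.0305 to 0.9995 for Ccnd3, the lowest value of each coming from the fit with no filter on low counts for Ccnd2 and from the fit without Tex15-/- replicate 1 for Ccnd3. Some exons of Ccnd1, Ccnd2, Ccnd3, Cdk4 and Cdk6 overlap genes on the opposite strand, and whether reads were counted by strand is not given in the sources used here.

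The E-type cyclins and Cdk2, which act next, were expressed at low to middling levels. Ccne2 was at 3.16, 3.33 and 4.25 CPM per kb in the controls and 2.69, 3.64 and 2.89 in the Tex15-/- libraries. Ccne1 was at 1.73, 1.36 and 0.688 CPM per kb in the controls and 1.13, 2.53 and 1.29 in the Tex15-/- libraries, and both genes had overlapping groups. In controls Ccne2 and Cdk2 overlapped per kb of exon union, with means of 3.58 ± 0.584 and 3.43 ± 0.711 CPM per kb. Both lay above Ccne1 at 1.26 ± 0.528. The exon union of Cdk2 is 6219 bases against 3264 for its longest transcript, so this overlap depends on the length. The log2 fold changes of the 3 genes were -0.22 for Ccne2, 0.03 for Cdk2 and 0.39 for Ccne1, none past the test.

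Of the 5 inhibitor genes of the set, Cdkn2a had by far the highest gene level per length. The gene encodes p16INK4A and p19ARF, different proteins whose transcripts begin at separate first exons. RefSeq promoters of GRCm38.p6 hold 2 starts for it, and a gene count adds the reads of both together. The level of the gene can therefore not be read as the level of the p16INK4A transcript. The 300 bases around each start (250 before and 50 after) are shown because the counts cannot say which of them was used, and the capitals mark the letters of the E2F motif in the upstream one (chr4:89294570-89294869, minus strand) and of the CCAAT motif in the downstream one (chr4:89282143-89282442, minus strand).
Cdkn2a promoter 1: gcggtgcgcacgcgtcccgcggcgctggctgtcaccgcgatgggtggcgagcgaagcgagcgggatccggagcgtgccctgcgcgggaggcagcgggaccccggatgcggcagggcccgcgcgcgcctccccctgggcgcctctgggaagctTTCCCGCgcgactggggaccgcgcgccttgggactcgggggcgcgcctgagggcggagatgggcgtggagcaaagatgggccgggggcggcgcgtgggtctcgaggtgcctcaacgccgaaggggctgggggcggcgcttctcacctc
Cdkn2a promoter 2: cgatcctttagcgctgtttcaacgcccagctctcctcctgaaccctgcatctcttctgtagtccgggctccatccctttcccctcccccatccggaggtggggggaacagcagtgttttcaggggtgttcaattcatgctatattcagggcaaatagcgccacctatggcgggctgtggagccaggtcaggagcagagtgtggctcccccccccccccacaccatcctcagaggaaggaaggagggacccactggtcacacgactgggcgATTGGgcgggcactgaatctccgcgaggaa

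Cdkn2a was at 34.6, 33.0 and 25.6 CPM per kb in control replicates 1, 2 and 3 and at 22.1, 34.4 and 37.2 in Tex15-/- replicates 1, 2 and 3. Replicate 1 lay below the controls, replicate 2 within their range and replicate 3 above, and the log2 fold change was 0.01 (SE 0.207, adjusted p = 0.993). Without replicates 2 and 3 it was -0.49, with an adjusted p of 0.9995, and over all alternatives the adjusted p ran from 0.493 to 0.9995. The control mean of Cdkn2a was 44.5-fold that of Cdkn2c, the lowest of the 5 inhibitor genes of the set. Cdkn1b, which encodes p27, Cdkn2b, which encodes p15, and Cdkn2d, which encodes p19INK4D, were close together in controls, at 4.20 ± 0.730, 3.90 ± 1.21 and 3.61 ± 0.345 CPM per kb (SD, n = 3), with overlapping libraries.

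Cdkn1b was at 4.78, 4.45 and 3.38 CPM per kb in the controls and 3.48, 6.19 and 4.18 in the Tex15-/- libraries, and the groups overlapped. Cdkn2b was at 5.17, 3.75 and 2.77 CPM per kb in the controls and 4.18, 3.01 and 2.19 in the Tex15-/- libraries, again with overlap. Cdkn2d was at 3.63, 3.95 and 3.26 CPM per kb in the controls and 2.55, 2.77 and 2.30 in the Tex15-/- libraries, so that every Tex15-/- library, replicate 1 included, lay below every control. On the TMM scale it was the only gene of the 41 with its groups apart in the lower direction, a pattern seen in 6.68% of all genes. Its log2 fold change was -0.51 (SE 0.341, adjusted p = 0.645 by edgeR). Cdkn2c, which encodes p18INK4C, was at 1.03, 0.523 and 0.546 CPM per kb in the controls and 1.34, 3.18 and 2.05 in the Tex15-/- libraries, every Tex15-/- library lying above every control. Its log2 fold change of 1.64 (SE 0.488, adjusted p = 0.460) rested on low counts, and it was 0.93 without replicates 2 and 3. On the TMM scale, groups apart in the higher direction were found in 4 of the 41 genes (Cdkn2c, E2f4, Pcna and Plk1), against 6.51% of all genes, with Cdkn2c tested only because of its Tex15-/- counts.

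None of the 3 pocket protein genes had its groups apart. Rb1, the retinoblastoma gene, was at 5.82, 6.03 and 5.88 CPM per kb in the controls and 5.96, 6.07 and 7.12 in the Tex15-/- libraries. Rbl2, which encodes p130, was the lowest at 2.37, 2.15 and 2.52 CPM per kb in the controls and 2.33, 3.65 and 1.61 in the Tex15-/- libraries, and Rbl1, which encodes p107, lay between them with a control mean of 3.27 ± 0.853 CPM per kb. Per kb of exon union, the control libraries of the 3 genes did not overlap. The exon unions of Rbl1 and Rbl2 are 5993 and 7558 bases. Their longest transcripts have 4862 and 4925 bases, so the separation of these 2 genes depends on the length. Their log2 fold changes were 0.11, 0.11 and 0.26, none past the test. Exons of Rb1 and Rbl2 overlap genes on the opposite strand.

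E2f1, an activating E2F factor, was the highest of the 4 E2F genes, at 7.77, 6.10 and 7.79 CPM per kb in the controls and 7.88, 9.10 and 6.94 in the Tex15-/- libraries, with overlapping groups. E2f4, whose product works with pocket proteins in repression, was next, at 4.29, 5.32 and 4.11 CPM per kb in the controls and 7.36, 7.78 and 6.91 in the Tex15-/- libraries. The 3 Tex15-/- libraries of E2f4 lay close together and above every control. Its log2 fold change was 0.69 (SE 0.221, adjusted p = 0.460) with all libraries and 0.69 without replicates 2 and 3, and over the alternatives the adjusted p ran from 0.118 to 0.9995. The difference did not pass the test. E2f2 had the lowest level of all 41 genes at 0.415, 0.0821 and 0.563 CPM per kb in the controls and 0.287, 0.670 and 0.234 in the Tex15-/- libraries, and with 59 counts over the 6 libraries its log2 fold change of 0.16 had an SE of 0.716. In E2f3 the control mean was 0.996 ± 0.502 CPM per kb, overlapping E2f2, and the log2 fold change was 0.18.

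The 7 replication genes of the set were abundant in controls, from 7.55 ± 0.524 CPM per kb for Pcna, the sliding clamp of DNA polymerases, to 48.4 ± 3.61 for Mcm3, a subunit of the MCM2-7 helicase. Mcm3 was at 49.3, 44.4 and 51.4 CPM per kb in the controls and 50.1, 66.4 and 58.8 in the Tex15-/- libraries, and its groups overlapped through replicate 1. Pcna was at 8.07, 7.02 and 7.56 CPM per kb in the controls and 9.10, 16.1 and 10.5 in the Tex15-/- libraries, where every Tex15-/- library lay above every control. The log2 fold change of Pcna was 0.66 (SE 0.231, adjusted p = 0.471) and that of Mcm3 was 0.27 (SE 0.119, adjusted p = 0.524). Without replicates 2 and 3 they were 0.27 and 0.05, and over the alternatives the adjusted p ran from 0.0407 to 0.9995 for Pcna and from 0.0385 to 0.9995 for Mcm3.

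The 6 helicase genes were not at equal levels per kb of exon union, although their products form 1 ring. The control means ran from 10.6 ± 1.18 CPM per kb for Mcm2 through 20.5 ± 1.83 for Mcm5 and 21.3 ± 0.639 for Mcm4 to 34.6 ± 0.371, 40.8 ± 4.24 and 48.4 ± 3.61 for Mcm6, Mcm7 and Mcm3. Mcm4 and Mcm5 overlapped in the controls, as did Mcm3 and Mcm7, while the other neighbours did not. These orders depend on the length used, since the exon union of Mcm2 is 6956 bases against 3494 for its longest transcript. Not divided by length, control means were 73.4, 76.4 and 82.0 CPM for Mcm2, Mcm4 and Mcm5. For Mcm6, Mcm7 and Mcm3 they were 161.3, 180.5 and 181.4 CPM. Exons of Mcm7 hold microRNA genes on the same strand and overlap other genes on the opposite strand, so its level is less certain. The log2 fold changes of Mcm2, Mcm4, Mcm5, Mcm6 and Mcm7 ran from -0.01 to 0.25. On the TMM scale, replicate 2 lay above every control in 6 of the 7 replication genes, replicate 3 in 5 and replicate 1 in 1, against 35.3%, 30.3% and 23.1% of all genes. Such places depend on the scaling, as the TPM counts over the 41 genes above show.

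The 14 mitotic genes of the set spanned a 40.7-fold range in controls, with spindle checkpoint genes at the top per kb of exon union. Bub1, a checkpoint kinase, was at 39.6, 43.4 and 42.0 CPM per kb in the controls and 40.5, 39.1 and 43.7 in the Tex15-/- libraries. Bub1b, which encodes the checkpoint protein BUBR1, and Cdc20, the activator of the anaphase-promoting complex that the checkpoint holds back, had control means of 35.4 ± 1.10 and 32.6 ± 3.08 CPM per kb. Top2a, the topoisomerase that untangles sister chromatids, was at 25.6, 29.0 and 33.1 CPM per kb in the controls and 29.1, 40.8 and 38.1 in the Tex15-/- libraries. Libraries of Bub1b and Cdc20 overlapped in the controls, as did those of Cdc20 and Top2a. Top2a has an exon union of 9013 bases against 5221 for its longest transcript, so its place below Bub1b and Cdc20 depends on the length. The log2 fold changes were -0.02 for Bub1, -0.10 for Bub1b and 0.07 for Cdc20, with standard errors of 0.0952, 0.102 and 0.132. Top2a had 0.30 (SE 0.138, adjusted p = 0.547), and -0.00194 without replicates 2 and 3.

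Mki67, which encodes the proliferation antigen Ki-67, was much lower than these in the controls, and Tex15-/- replicate 2 stood far from the rest. It was at 3.90, 3.17 and 3.75 CPM per kb in control replicates 1, 2 and 3 and at 3.25, 24.0 and 8.45 in Tex15-/- replicates 1, 2 and 3. Replicate 2 was 6.66-fold and replicate 3 2.34-fold the control mean, and replicate 1 lay within the control range at 0.900-fold. The log2 fold change was 1.72 (SE 0.528, adjusted p = 0.460) with all libraries and -0.15 without replicates 2 and 3, and the adjusted p ran from 1.06e-27 to 0.9995 over the alternatives. Aurkb, the kinase of the chromosomal passenger complex, was the lowest mitotic gene, at 0.876, 0.953 and 1.24 CPM per kb in the controls and 1.02, 4.69 and 1.10 in the Tex15-/- libraries, with replicate 2 alone above the controls and a log2 fold change of 1.15 (SE 0.589, adjusted p = 0.581).

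Plk1, a kinase of mitotic entry, was at 4.02, 2.64 and 3.50 CPM per kb in the controls and 4.19, 4.96 and 4.15 in the Tex15-/- libraries. On the TMM scale every Tex15-/- library of Plk1 lay above every control by a narrow margin. Its log2 fold change was 0.39 (SE 0.282, adjusted p = 0.665 by edgeR). Cdk1, the kinase that drives entry into mitosis, had a control mean of 2.27 ± 0.483 CPM per kb, far under its cyclin partners Ccnb2 at 14.9 ± 0.756 and Ccnb1 at 12.2 ± 1.96. In Cdk1, too, replicate 2 stood apart, at 4.90 CPM per kb against 1.38 and 1.54 in replicates 1 and 3, which both lay below the controls. The other 4 mitotic genes were Aurka, a spindle pole kinase, Ccna2, a cyclin of S phase and mitosis, Foxm1, a transcription factor of mitotic genes, and Birc5, which encodes survivin. Their control means were 11.5 ± 2.16, 7.28 ± 0.793, 5.25 ± 0.650 and 3.02 ± 0.279 CPM per kb and their log2 fold changes 0.26, 0.24, 0.26 and 0.61. Without Tex15-/- replicate 2 these were 0.23, 0.06, 0.02 and 0.30, and without replicates 2 and 3 they were 0.05, 0.16, 0.21 and -0.03. In Birc5 replicates 2 and 3 lay above every control and replicate 1 within their range.

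**Figure D4:**
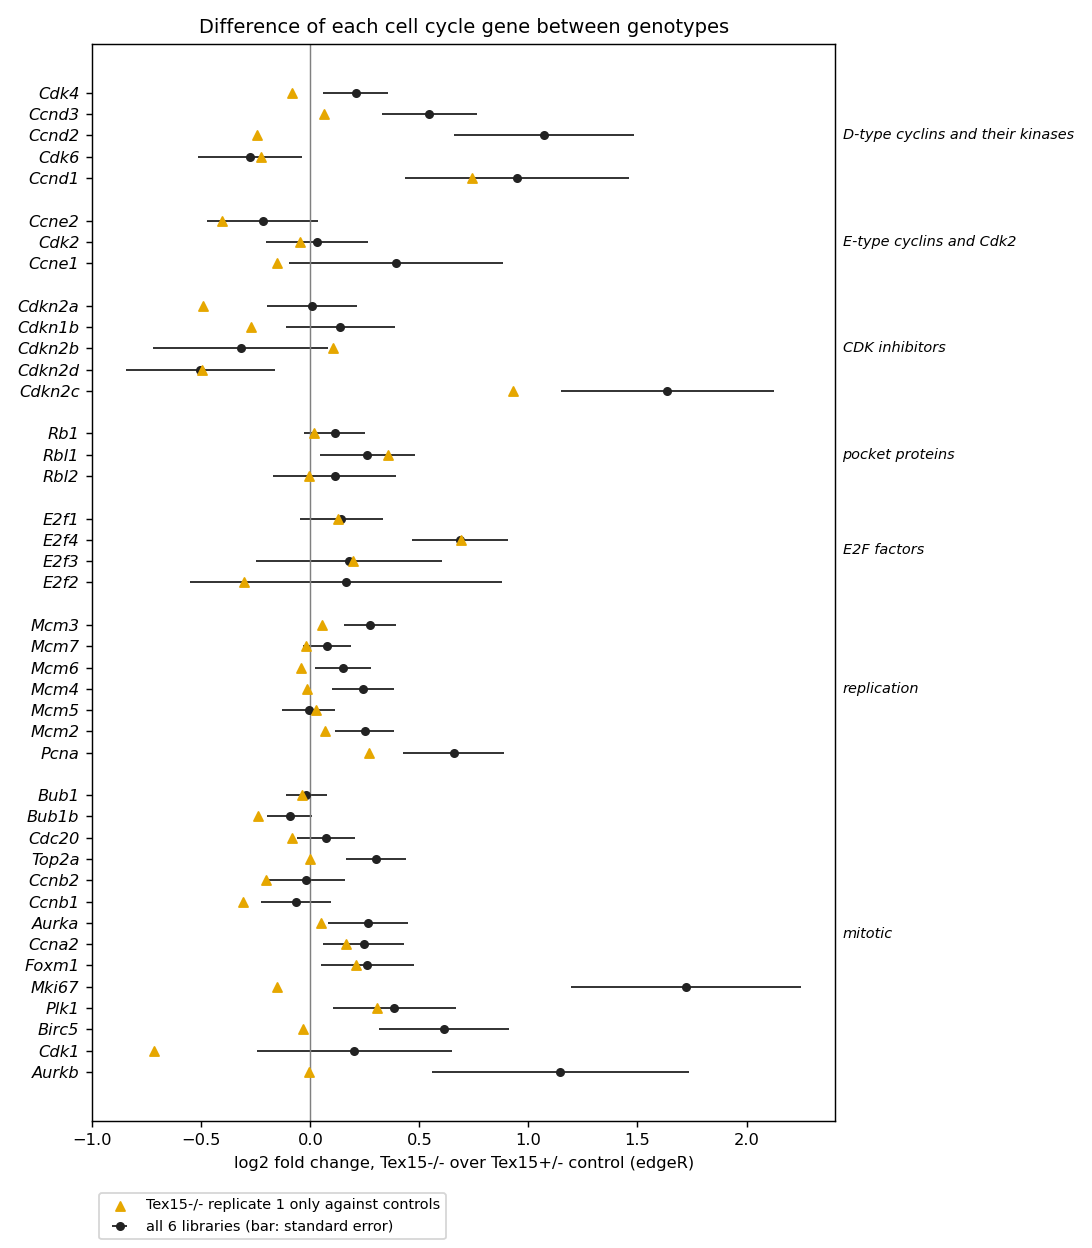
Log2 fold change of each gene, Tex15-/- over control, from edgeR with all 6 libraries (points, bars are standard errors) and for Tex15-/- replicate 1 alone against the 3 controls (triangles). Mki67 moves from 1.72 to -0.15 and Ccnd2 from 1.07 to -0.25 between the 2 fits, while E2f4 stays at 0.69.

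Calls among the 41 genes depended on which Tex15-/- libraries were present. When replicate 1 was left out, edgeR called Ccnd2 and Mki67 at an adjusted p under 0.01, 2 of the 41 genes against 2.21% of all genes. At an adjusted p under 0.05 it then called 7 of the 41 (Ccnd2, Ccnd3, Cdkn2c, Mcm3, Pcna, Mki67 and Top2a), against 7.33% of all genes. Cdkn2c again passed the filter on low counts only through the Tex15-/- libraries, where it was high, so its call is no support. The 2 Tex15-/- libraries then left are the ones with raised somatic markers. Leaving out replicate 2 or replicate 3 instead gave 0 of the 41 at an adjusted p under 0.05, against 0.0461% and 0% of all genes. With every gene that had any count kept in the fit of all 6 libraries, Ccnd2 and Mki67 were called at an adjusted p under 0.01, again 2 of the 41, against 1.15% of all genes.

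Summed by class, the proliferation genes outweighed the arrest genes in every library. The 21 replication and mitotic genes summed to 389, 372 and 400.3 CPM per kb in the controls and to 378, 495 and 433 in Tex15-/- replicates 1, 2 and 3. The 8 inhibitor and pocket protein genes summed to 60.1, 56.7 and 48.3 CPM per kb in the controls and to 46.1, 62.8 and 60.7 in the Tex15-/- libraries. Group means were 387 ± 14.3 and 435 ± 58.4 CPM per kb for proliferation genes and 55.0 ± 6.12 and 56.5 ± 9.11 for arrest genes (SD, n = 3 each). On the TMM scale the proliferation sum of Tex15-/- replicates 2 and 3 lay above the controls, and that of replicate 1 lay within them. Scaled to TPM, replicate 3 lay above the controls at 159.8 and replicate 2 within them at 148.0. Replicate 1 then lay below them at 129.9, against 140.0 to 153.9 in the controls. In TPM the order of the proliferation means turned, at 149 in controls and 146 in Tex15-/- gonocytes, and the arrest means were 21.2 and 19.0.

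The arrest genes made up 13.4%, 13.2% and 10.8% of both sums together in the controls and 10.9%, 11.3% and 12.3% in the Tex15-/- libraries, with means of 12.5% ± 1.48 and 11.5% ± 0.734 (SD, n = 3 each), so the groups overlapped. Cdkn2a alone, with its p16INK4A and p19ARF transcripts counted together, supplied 47.9% to 61.3% of the arrest sum. Without Cdkn2a the arrest genes summed to 25.5, 23.7 and 22.6 CPM per kb in the controls. In Tex15-/- replicates 1, 2 and 3 that sum was 24.0, 28.4 and 23.5. By the median gene in place of the sum, the arrest genes were at 3.16 to 4.20 CPM per kb and the proliferation genes at 11.9 to 16.4 CPM per kb over the 6 libraries. The lists hold different numbers of genes, and the order of the sums is a description of transcript level only.

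Of 84 further cell cycle genes, 82 were tested, and 0 passed an adjusted p under 0.05 in edgeR or in DESeq2, against 0.0184% and 0.242% of all genes. With no filter on low counts 4 of 84 passed it (Cdc25b, Cenpf, Tpx2 and Prc1), against 1.66% of all genes, and without Tex15-/- replicate 1 it was 7 of 82, against 7.33%. In edgeR 9 of the 82 had an unadjusted p under 0.05, 8 of them higher in Tex15-/- and 1 (Cenpf) lower, and in DESeq2 there were 9. Of all genes tested in edgeR, 9.2% had such a p, 6.05% in the higher direction. In DESeq2 it was 4.02% of the 42446 genes with any count, a wider base. The median log2 fold change of the 82 was 0.02. The smallest p-values belonged to E2f8, an atypical repressive E2F, with a log2 fold change of 1.74 (SE 0.545, adjusted p = 0.460), to Cdc25b, a phosphatase that activates CDKs, with 0.56 (SE 0.184, adjusted p = 0.460), and to Tpx2, a spindle assembly factor, with 0.54 (SE 0.195, adjusted p = 0.471). E2f8, like Tk1 among the 8 higher genes, passed the filter on low counts only through the Tex15-/- libraries, where it was high, so its p is no support. The same holds for E2f8 among the 7 of 82 that passed without Tex15-/- replicate 1. Per library, E2f8 had 15, 5 and 7 counts in the controls and 14, 38 and 39 in the Tex15-/- libraries. Cdc25b was at 37.8, 34.1 and 39.6 CPM in the controls and 43.5, 70.9 and 49.7 CPM in the Tex15-/- libraries, with every Tex15-/- library above every control on the TMM scale. Tpx2 was at 45.5, 42.9 and 50.6 CPM in the controls and 46.5, 83.8 and 72.5 CPM in the Tex15-/- libraries, where replicate 1 lay within the control range. Cenpf, a kinetochore protein gene and the lower one of the 9, was at 1028, 1084 and 1186 CPM in the controls and 1081, 650.1 and 737 CPM in the Tex15-/- libraries. Replicates 2 and 3 were below the controls for Cenpf and replicate 1 within them, and its log2 fold change was -0.42 (SE 0.162, adjusted p = 0.479). Without replicates 2 and 3, which had the raised somatic markers, the log2 fold changes of E2f8, Cdc25b, Tpx2 and Cenpf were 0.72, 0.23, 0.00529 and -0.02. In that fit 3 of 84 genes (Orc2, Cks2 and Bub3), none of them among the 9, had an unadjusted p under 0.05, against 3.74% of all genes.

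The promoters of these genes carry the letters of known cell cycle elements. E2F sites bind E2F factors, CHR elements bind the DREAM and MuvB complexes at mitotic genes, and CCAAT boxes bind NF-Y. RefSeq promoters of GRCm38.p6, 250 bases before and 50 after a start, were given for 32 of the 41 genes (38 promoters, since 6 genes have more than 1). Both strands were searched for 3 forms of the E2F site, which were TTCCCGC, then the form TTGGCGC and last the form TTCGCGC. The CHR letters searched were TTTGAA, and those of the box were CCAAT. Read on the other strand, CCAAT is ATTGG and can run into TTGGCGC, so the 2 kinds of match are not independent.

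E2F letters were in 14 of the 38 promoters (36.8%), against 8.07% of all 32851 promoters, and in 5 of 7 replication promoters, 2 of them of Mcm7, but 3 of 11 mitotic ones. CHR letters were in 13 of the 38 (34.2%), against 17.9% of all promoters, and here the mitotic promoters led with 8 of 11, against 1 of 7 replication promoters. With the 250 bases before the start alone, CHR letters were left in 5 of 11 mitotic promoters (45.5%) and in 1 of 7 replication promoters, against 15.99% of all promoters in that window, and E2F letters in 4 of 7 replication promoters (57.1%), against 6.69%. CCAAT was in 26 of the 38 (68.4%), against 37.4% of all promoters, and in 10 of 11 mitotic and 7 of 7 replication promoters. No test was made of these shares, and a match is a description of letters, not of binding.

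**Figure D5:**
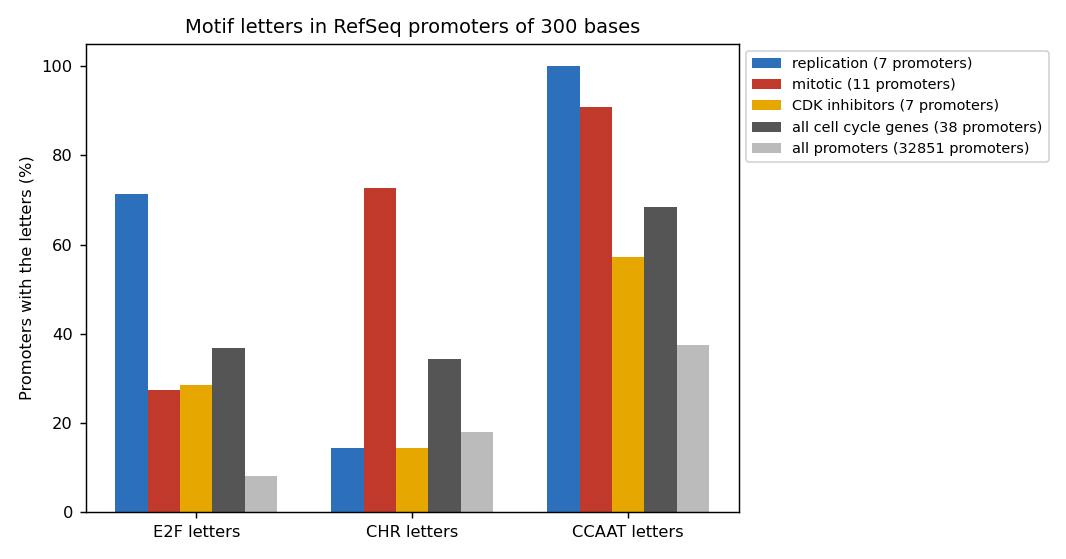
Percent of RefSeq promoters of 300 bases that hold the letters of each motif, for replication, mitotic and CDK inhibitor genes, for all 38 cell cycle promoters and for all 32851 promoters. In this window CHR letters are in 72.7% of the mitotic promoters, against 45.5% in the 250 bases before the start (15.99% of all promoters), and E2F letters in 71.4% of the replication promoters, against 57.1% (6.69% of all promoters).

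Promoters of 4 mitotic genes and of Mcm3 are shown to set genes of different level beside each other. Mki67 (near the median coding gene in controls, chr7:135716330-135716629, minus strand) and Cdk1 (chr10:69352863-69353162, minus strand) hold all 3 kinds of letters. Bub1b (chr2:118597961-118598260, plus strand) and Cdc20 (chr4:118437294-118437593, minus strand), both far more abundant per length than Cdk1, hold CHR and CCAAT letters without E2F letters. Plk1 and Birc5, at 3.39 and 3.02 CPM per kb in controls, also lack E2F letters, while Ccnb1 at 12.2 holds them. In Ccnb1 the E2F letters at bases 149 to 155 run into a CCAAT match at bases 152 to 156, so they are not independent of it. A link of letters to level was not tested. Mcm3 (chr1:20820263-20820562, minus strand), the most abundant of the 7 replication genes of the set per kb of exon union, holds E2F and CCAAT letters without CHR letters. The CHR letters of Bub1b and the E2F letters of Mcm3 lie after the start, and neither is in the 250 bases before it. Capitals mark the motif letters on either strand, each sequence reads 5′ to 3′ on the strand of its gene, and the genes were chosen after their levels were seen.
Mki67: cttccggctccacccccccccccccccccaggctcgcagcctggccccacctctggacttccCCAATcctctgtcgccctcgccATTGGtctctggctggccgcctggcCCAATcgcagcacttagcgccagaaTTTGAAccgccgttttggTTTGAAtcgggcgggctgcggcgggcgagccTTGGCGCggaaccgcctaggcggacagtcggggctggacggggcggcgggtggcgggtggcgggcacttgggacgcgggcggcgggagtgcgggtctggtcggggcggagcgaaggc
Cdk1: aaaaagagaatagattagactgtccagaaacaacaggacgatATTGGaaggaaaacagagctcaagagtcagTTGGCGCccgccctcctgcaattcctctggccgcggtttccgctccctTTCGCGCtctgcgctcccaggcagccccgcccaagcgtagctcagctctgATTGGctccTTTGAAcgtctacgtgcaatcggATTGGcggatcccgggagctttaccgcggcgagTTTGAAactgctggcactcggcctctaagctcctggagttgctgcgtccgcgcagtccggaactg
Bub1b: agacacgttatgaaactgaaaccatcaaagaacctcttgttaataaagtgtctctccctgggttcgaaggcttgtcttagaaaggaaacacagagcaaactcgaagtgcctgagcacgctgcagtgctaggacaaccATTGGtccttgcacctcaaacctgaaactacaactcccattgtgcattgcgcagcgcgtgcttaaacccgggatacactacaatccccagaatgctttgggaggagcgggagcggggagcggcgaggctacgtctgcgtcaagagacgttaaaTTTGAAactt
Cdc20: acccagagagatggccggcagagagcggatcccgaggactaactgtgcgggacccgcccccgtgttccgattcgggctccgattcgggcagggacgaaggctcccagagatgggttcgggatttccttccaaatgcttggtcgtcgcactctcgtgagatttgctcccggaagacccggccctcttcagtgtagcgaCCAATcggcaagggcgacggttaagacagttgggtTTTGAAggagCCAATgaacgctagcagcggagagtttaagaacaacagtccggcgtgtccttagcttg
Mcm3: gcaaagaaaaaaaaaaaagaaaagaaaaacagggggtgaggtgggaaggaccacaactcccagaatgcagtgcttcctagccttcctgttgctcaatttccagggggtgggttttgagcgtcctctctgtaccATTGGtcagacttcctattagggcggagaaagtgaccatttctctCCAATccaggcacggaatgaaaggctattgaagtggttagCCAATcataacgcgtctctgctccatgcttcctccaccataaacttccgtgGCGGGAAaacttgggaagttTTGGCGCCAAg

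Mki67 and Cdk1 at 3.61 and 2.27 CPM per kb in controls carried CHR letters before the start, as did Cdc20 at 32.6 CPM per kb, while Bub1b at 35.4 CPM per kb carried them after it.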

How the data were processed

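RNA-seq gene counts of 3 Tex15+/- and 3 Tex15-/- libraries of sorted gonocytes were analysed. The authors made libraries with a stranded low-input kit after ribosomal RNA depletion, aligned reads with HISAT2 and counted them per Ensembl gene with HTSeq 0.11.1, and deposited raw counts without normalisation. Rows of reads assigned to no gene, which include unaligned, ambiguous and multiply aligned reads, held 61.3% to 67.3% of each table and were left out. Strand use in counting is not given in the sources used here, and 13 of the 41 genes share exon bases with a gene on the opposite strand and 3 with one on the same strand.

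Counts were fitted in R 4.3.3 with edgeR 4.0.16 (TMM, filterByExpr with a minimum count of 10 and total of 15, quasi-likelihood test, Benjamini-Hochberg adjustment over all 16311 genes), and an adjusted p under 0.01 was a call. DESeq2 1.42.0 was an alternative. An exact permutation test of 3 against 3 libraries cannot go below p = 0.10 and was not used. Of 54838 gene identifiers 54723 had a symbol. Levels are TMM-scaled counts per 1000000 (CPM) per kilobase of the union of GENCODE exons. The fit was tested on simulated data with the same spread in every library, which the deposited libraries did not have (chi-square per degree of freedom of 6.18 to 19.2 between Tex15-/- libraries and 3.14 to 6.41 between controls).

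The 41 genes, the 84 further genes, the marker lists and the motifs were chosen with earlier results of these data known. Values in every library are given for the highest and lowest gene of each role, Cdkn1b, Cdkn2b, Rb1, Mki67 and Top2a, every gene with an unadjusted p under 0.05 and every gene whose groups do not overlap, and of the further genes for the 3 with the smallest p. Cenpf, Cdk1, Orc2, Cks2, Bub3, Prc1, Tk1 and the printed promoters were added after their values were seen. Alternatives were other scalings, lengths, filters, tests and thresholds, a block on replicate number, and fits that left out single libraries. Leaving out Tex15-/- replicates 2 and 3 together was chosen after seeing the data. The P20 and small RNA libraries and the repeat counts were not used here.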

Additional observations from a re-analysis of the deposited data

How the results depend on the processing

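Between 0 and 2 of the 41 genes were called when each library was left out in turn, between 0 and 388 of all genes and between 0 and 2 of the further list. Over all genes the count was 0 with the reported settings and 14 in DESeq2, 488 with no filter on low counts (2 of the 41 genes), 1 where every library had to hold at least 10 counts, 2 with the newer quasi-likelihood estimate of edgeR, 18 without Tex15-/- replicates 2 and 3, and 3 at an adjusted p under 0.05, with or without a limit of 1 on the absolute log2 fold change. The names of the genes called in the 41 are given above, and the cause was not tested. Leaving out Tex15-/- replicate 1 gave the 388 calls, with Ccnd2 and Mki67 of the 41 genes and Cenpf and Tpx2 of the further list among them.

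With the length of the longest transcript, the arrest genes summed to 68.8 CPM per kb in controls and 70.8 in Tex15-/-, and the proliferation genes to 489.5 and 550.7. In TPM these were 21.2, 19.0, 149 and 146. Without Rbl1, Cdkn2c and Cdkn2d the arrest sum of the controls was 47.4 CPM per kb, and the arrest share was 10.9% in controls and 9.88% in Tex15-/-. These follow from the other lengths, units and lists themselves. With the 250 bases before the start alone, the motif shares of the 38 promoters were 31.6% for E2F, 26.3% for CHR and 63.2% for CCAAT, against 6.69%, 15.99% and 33.9% of all promoters.

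Of 530 fold changes of the 41 genes under alternatives, 471 kept direction and side of the threshold, 4 passed it in the same direction and 55, in 23 genes, changed sign, none of them past the threshold. The log2 fold changes that turned were these. Without Tex15-/- replicates 2 and 3, Ccnd2 -0.25, Cdk4 -0.0869, Ccne1 -0.15, Cdk2 -0.0504, Cdkn1b -0.27, Cdkn2a -0.49, Cdkn2b 0.10, Rbl2 -0.00733, E2f2 -0.30, Mcm4 -0.0158, Mcm5 0.0242, Mcm6 -0.0417, Mcm7 -0.0211, Mki67 -0.15, Top2a -0.00194, Cdk1 -0.72, Aurkb -0.00500, Cdc20 -0.0866 and Birc5 -0.0347. With total counts in place of TMM, Cdkn2a -0.0272. With at least 10 counts in every library, Cdkn2a -0.0124. In DESeq2, Mcm5 0.0124, Ccnb2 0.00186 and Bub1 0.000899. With no filter on low counts, Mcm5 0.0223, Ccnb2 0.0118 and Bub1 0.0111. With single libraries left out, the ranges of those that turned were Ccne1 -0.0529 to 0.70, Cdk2 -0.16 to 0.17, Cdkn1b -0.13 to 0.32, Cdkn2a -0.13 to 0.22, Rbl2 -0.25 to 0.36, E2f2 -0.44 to 0.66, E2f3 -0.13 to 0.62, Mcm5 -0.0797 to 0.0728, Mcm6 -0.0154 to 0.25, Mcm7 -0.00202 to 0.15, Ccnb1 -0.18 to 0.0588, Ccnb2 -0.10 to 0.0770, Cdk1 -0.63 to 0.52, Bub1 -0.0565 to 0.0196 and Cdc20 -0.00124 to 0.16.

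No pairing of the libraries by replicate number was seen, but the check cannot exclude one, with 3 libraries per group and Tex15-/- replicate 2 far from the others. Deviations of same-numbered libraries from their group means correlated at -0.144, -0.041 and -0.0092, and those of other-numbered libraries at -0.087 to 0.125. With the replicate number as a block, edgeR called 0 of the 41 genes and 0 of all genes at an adjusted p under 0.01 and 6 of all genes at 0.05, and Cdkn2a -0.0118 and Cdk1 -0.00459 changed sign, at these log2 fold changes.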
